A study of Mus musculus with 15 samples.

Results

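Levels were examined for 9 genes of the basement membrane: the collagen IV chains Col4a1, Col4a2, Col4a5 and Col4a6, the collagen XVIII chain Col18a1, the nidogens Nid1 and Nid2, and the heparan sulfate proteoglycans Hspg2 (perlecan) and Agrn (agrin). The genes were chosen by symbol, and all 9 were found among the 27179 genes of the count table. RNA was sequenced from intestinal epithelial cells of mice carrying both APCmin, an Apc mutation that gives intestinal tumors, and the reporter allele Lrig1-eGFP-IRES-CreERT2, which makes cells fluoresce where the stem and progenitor cell gene Lrig1 is active. EpCam+ cells free of CD45 and CD31 were sorted by that fluorescence into fractions labelled Lrig1-high and Lrig1-low, from normal colonic epithelium and from dissected colonic tumors. All groups thus carry the Apc mutation and the reporter, the normal ones included, and the labels give no age, sex or animal. The table holds 4 normal Lrig1-low libraries (S01, S05, S09, S13), 4 normal Lrig1-high (S02, S06, S10, S14), 4 tumor Lrig1-low (S03, S07, S11, S15) and 3 tumor Lrig1-high (S04, S08, S12). No animal is named, so a p-value here gauges variation among libraries of a label, part of which may be technical.

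Basement membranes are thin sheets of matrix under epithelia and around vessels, muscle and nerve. Laminin and collagen IV each form a network, nidogens bind both networks, and perlecan, agrin and collagen XVIII add heparan sulfate chains that hold growth factors. In the gut much of the collagen IV and nidogen of the epithelial basement membrane is made by mesenchymal cells under the epithelium, while epithelial cells make laminins, agrin and perlecan as well.

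The 14 libraries with reads held 9508505 to 17296536 counts, while S15 held 357 counts in 47 genes, none of them a member, and was left out of the comparisons, so that tumor Lrig1-low had n = 3. The RNA of Lrig1 itself went against the sort label in 3 libraries: S10, labelled normal Lrig1-high, had 36.3 CPM (counts scaled to 1000000 per library), S07, labelled tumor Lrig1-low, had 141.6 CPM, and S08, labelled tumor Lrig1-high, had 55.6 CPM. S09, labelled normal Lrig1-low, had 85.5 CPM, against 45.3 to 53.9 CPM in the other libraries of its label. Results are given with these 4 libraries and, where that changes a call or direction, without them. They were singled out by measured RNA, so the smaller set is no independent support. The smaller set also keeps S12, labelled tumor Lrig1-high, whose Lrig1 RNA, at 72.5 CPM, was below that of S09. S12 had the highest share of counts in mitochondrially encoded genes, 49.5% against 14.1% to 29.8% in the others, and the fewest genes with a count, 11995. Epcam was at 604 to 1509 CPM in every library, all 10 epithelial markers were above 1 CPM, and 9 or 10 of 10 small intestine markers were above 1 CPM. Of 9 colon markers 3 to 6 were above 1 CPM, and Hoxb13 and Hoxd13, which mark distal colon, were at 0 in all 14, so the colon is named here by the labels only.

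Sequences are shown for members picked by their levels and tests below. The shared start of the collagen IV pair is shown because both genes were highest in S11, S03 and S10. Also shown are promoters of the proteoglycans, the members with the highest levels, and of Col18a1, the member with the smallest p-value. Whether these sequences bear on the levels was not tested. Promoter windows of 250 bases before a RefSeq start (GRCm38.p6, the same chromosome sequences as mm10) were found for 8 of the 9 genes, and not for Nid2. Col4a1 (gene 12826, mm10 chr8:11198423-11312826, minus strand) and Col4a2 (gene 12827, chr8:11312829-11449287, plus strand) run away from each other, with first exon bases 3 apart in the annotation of the count table. The RefSeq window before the Col4a2 start ends at base 11312804, so by that table the start lies further left and the first exons would overlap. The 30 bases around the starts of the count table, on the plus strand, have the first base of each gene in capitals, Col4a1 on the left.

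Col4a1 and Col4a2 starts, chr8:11312813-11312842: ggcggcgtctccaAggGgaggaccctgcgg

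Agrn (gene 11603, chr4:156165290-156197488, minus strand) and Hspg2 (gene 15530, chr4:137468803-137570630, plus strand) have promoters rich in GC boxes, the letters GGGCGG on either strand, which are put in capitals below and can overlap. The window of the outer Agrn start held 12 of them, that of an internal Agrn start 2 and the Hspg2 window 5. Among 32851 promoter windows of that length, 32.7% held at least 1 and 1.93% held 5 or more.

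Agrn outer promoter, chr4:156197489-156197738, minus strand: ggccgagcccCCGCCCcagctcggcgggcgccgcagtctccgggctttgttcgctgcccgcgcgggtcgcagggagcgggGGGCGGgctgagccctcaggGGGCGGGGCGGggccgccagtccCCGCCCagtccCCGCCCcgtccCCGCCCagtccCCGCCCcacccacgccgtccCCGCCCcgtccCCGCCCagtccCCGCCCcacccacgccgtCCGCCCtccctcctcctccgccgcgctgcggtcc

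Hspg2 promoter, chr4:137468553-137468802, plus strand: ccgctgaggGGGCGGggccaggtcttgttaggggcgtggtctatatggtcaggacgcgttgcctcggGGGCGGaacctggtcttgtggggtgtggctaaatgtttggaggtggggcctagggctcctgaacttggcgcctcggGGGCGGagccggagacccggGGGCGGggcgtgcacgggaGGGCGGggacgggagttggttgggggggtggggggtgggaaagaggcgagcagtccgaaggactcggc

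Col18a1 (gene 12822, chr10:77052179-77166530, minus strand) also has more than 1 annotated start, and counts per gene do not tell transcripts from different starts apart. The window of an internal start holds 2 matches to GGAATG, the core letters bound by TEAD factors, in capitals on either strand, and 12.6% of all windows held at least 1. The Nid1 window held 1 match, while the outer Col18a1 window and the windows of the other members held none. These matches describe the letters only, and binding was not measured.

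Col18a1 internal promoter, chr10:77113706-77113955, minus strand: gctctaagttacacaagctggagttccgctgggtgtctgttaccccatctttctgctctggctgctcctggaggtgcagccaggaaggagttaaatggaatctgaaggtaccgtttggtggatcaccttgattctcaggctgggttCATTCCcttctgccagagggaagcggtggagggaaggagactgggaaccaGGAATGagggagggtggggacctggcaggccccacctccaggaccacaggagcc

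The letters CTTTGAT of a TCF/LEF site, which 3.21% of all windows hold, and TGANTCA of an AP-1 site, which 6.75% hold, were not in any member window searched on both strands. CCAAT, held by 33.8% of windows, was in the Col4a1, Col4a2, Col4a5, Nid1 and outer Col18a1 windows.

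Of the 9 genes, Agrn and Hspg2 had the highest levels per length. Over the 14 libraries Agrn had a mean level of 14.6 CPM per kilobase of exon and Hspg2 one of 6.54, and 71.0% and 48.6% of the 13883 genes tested lay at or below them. Col4a1 followed at 1.82, Nid2 at 1.74, Col18a1 at 1.26, Col4a2 at 0.780 and Nid1 at 0.0585 CPM per kilobase. Agrn and Hspg2 together made 82.1% to 92.1% of the summed per-length level of the 9 genes in 11 libraries. The share was 70.9% in S10, 70.04% in S03 and 47.2% in S11, the libraries in which the collagens were high.

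**Figure D1:**
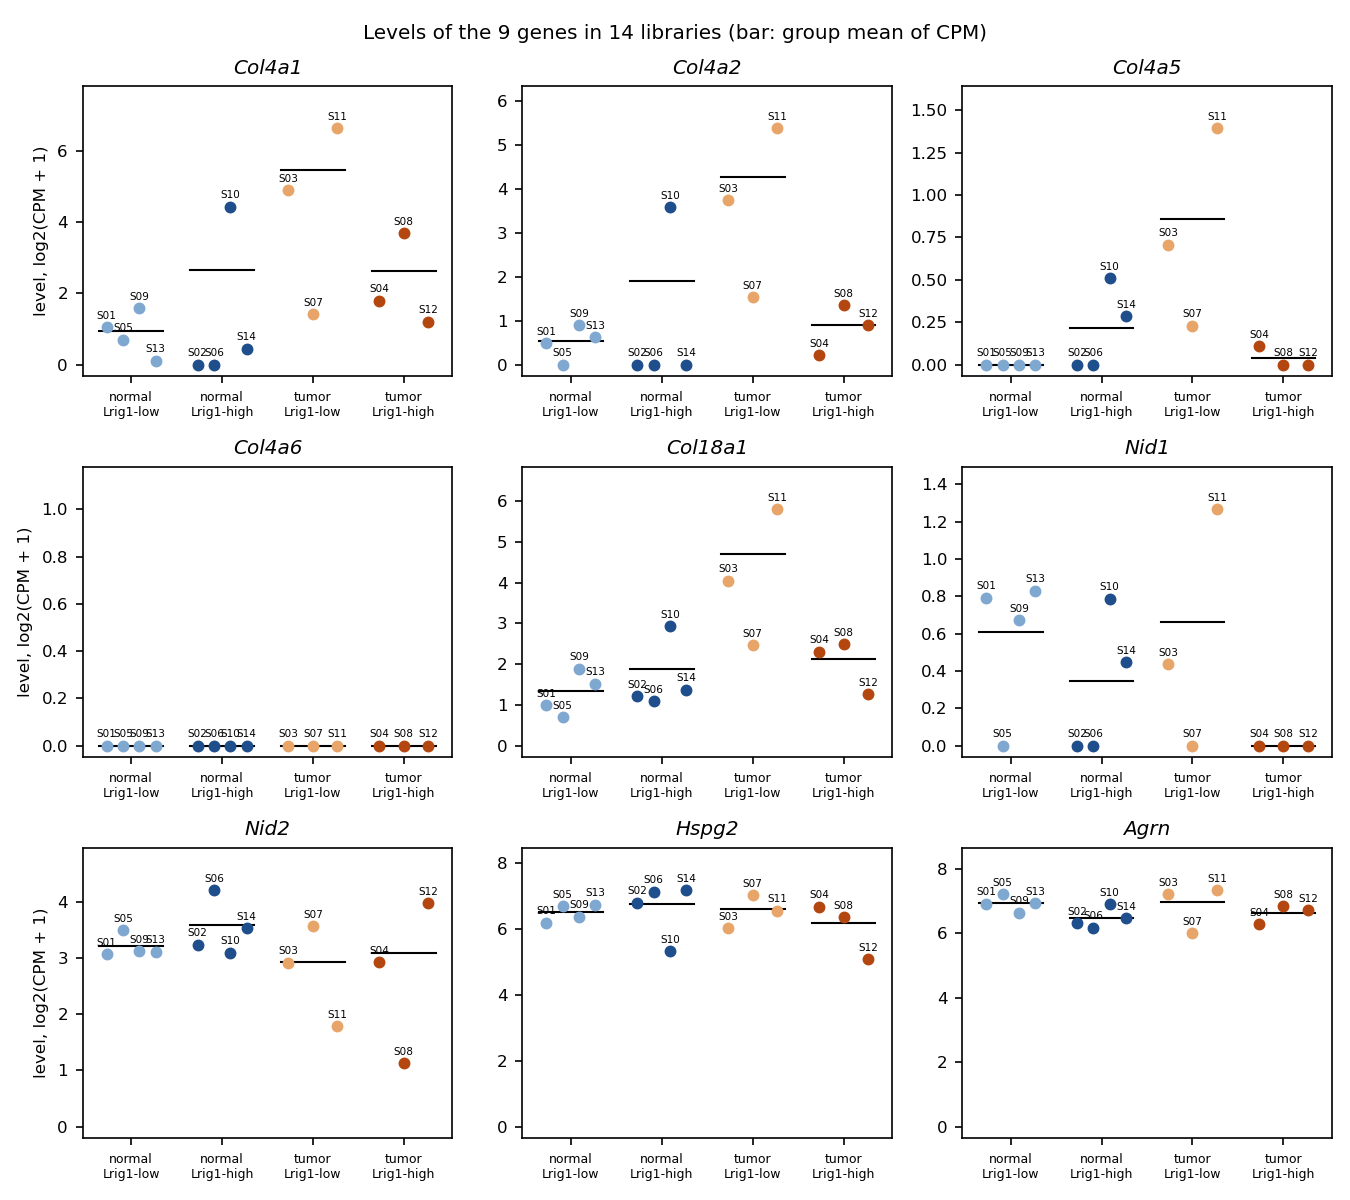
Level of each of the 9 genes on a log2(CPM + 1) scale (vertical axis, a different range in each panel) in the 14 libraries, grouped and coloured by label, with a bar at the log2 of the group's mean CPM plus 1. Col4a1, Col4a2 and Col18a1 stand high in S11, S03 and S10, Agrn and Hspg2 stay above 33 CPM in every library, and Col4a6 is at 0 throughout.

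The main chains of collagen IV, which assemble as 2 Col4a1 chains with 1 Col4a2 chain into the network of nearly all basement membranes, were close to absent from most libraries and high in a few. Col4a1 was at 1.06 CPM in S01, 0.626 in S05, 1.98 in S09 and 0.0777 in S13 of the normal Lrig1-low label, and at 28.8 in S03, 1.67 in S07 and 97.9 in S11 of tumor Lrig1-low. In normal Lrig1-high it was at 0 in S02 and S06, 20.7 in S10 and 0.362 in S14, and in tumor Lrig1-high at 2.46 in S04, 11.9 in S08 and 1.30 in S12. S03 and S11 stood above every normal Lrig1-low library, while S07 lay within their range, and 1 library, S10, carried the level of its group.

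Col4a2 was likewise highest in S11, S03 and S10, but the pair parted elsewhere. Col4a1 was at 11.9 CPM in S08 and 1.67 in S07, where Col4a2 was at 1.55 and 1.90 CPM. Col4a2 was at 0.407, 0, 0.858 and 0.544 CPM in S01, S05, S09 and S13, and at 12.4, 1.90 and 40.6 CPM in S03, S07 and S11. In Lrig1-high cells it was at 10.96 CPM in S10 and at 0 in S02, S06 and S14 of the normal label, and at 0.158, 1.55 and 0.864 CPM in S04, S08 and S12 of the tumor label. All 3 tumor Lrig1-low libraries lay above all 4 normal Lrig1-low libraries and above all 3 tumor Lrig1-high libraries.

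In libraries with at least 10 counts of both genes, the Col4a1 level was 1.83 times the Col4a2 level per length in S10, 2.24 in S09, 2.26 in S03 and 2.34 in S11, against 0.854 in S07 and 7.43 in S08. As a share of the pair's counts, Col4a1 made 70.7% in S11 (95% Clopper-Pearson interval 68.6% to 72.7%), 69.9% in S03 (66.0% to 73.6%) and 65.3% in S10 (61.1% to 69.4%). The share was 88.4% in S08 (82.1% to 93.1%) and 46.8% in S07 (34.0% to 59.9%), outside the intervals of the other 3. These intervals cover counting error only, and they treat each count as independent. Both reads of a pair counted, and reads copied by PCR are not independent molecules, so the intervals are too narrow. Whether S07 lies apart from the other libraries cannot be told from them.

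Col4a5 and Col4a6, whose chains join in a second kind of collagen IV network, lie head to head on the X chromosome (Col4a5, gene 12830, chrX:141475419-141689235, plus strand; Col4a6, gene 94216, chrX:141165403-141474076, minus strand) with 1343 bases between their starts. Col4a5 had 45 counts in all and did not pass the count filter. It was at 0.633, 0.172 and 1.63 CPM in the 3 tumor Lrig1-low libraries and at 0 in all 4 normal Lrig1-low libraries, where 3 counts would have been 0.198 to 0.268 CPM. In Lrig1-high cells Col4a5 was at 0.424 CPM in S10, 0.217 in S14, 0.0792 in S04 and 0 in the other 4 libraries. Col4a6 had no count in any of the 14 libraries, where 3 counts would have been 0.172 to 0.324 CPM.

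Col18a1, which encodes the collagen whose tail is released as endostatin, was detected in every library. It was at 0.978, 0.626, 2.71 and 1.87 CPM in S01, S05, S09 and S13, and at 15.6, 4.54 and 54.8 CPM in S03, S07 and S11. In Lrig1-high cells the normal libraries S02, S06, S10 and S14 had 1.32, 1.12, 6.66 and 1.59 CPM, and the tumor libraries S04, S08 and S12 had 3.96, 4.65 and 1.404 CPM. The tumor and normal Lrig1-low libraries did not overlap, while those of the Lrig1-high label did.

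In the Lrig1-low fraction, tumor against normal, Col4a1 differed by 5.49 ± 1.93 on the log2 scale (SE, n = 3 and 4, adjusted p = 0.203 in edgeR's quasi-likelihood test), Col4a2 by 5.29 ± 1.98 (adjusted p = 0.239) and Col18a1 by 4.0 ± 0.91 (adjusted p = 0.0648). The p-values are adjusted by the Benjamini-Hochberg method over all genes tested, with 0.05 as the threshold, so none of the 7 members that passed the filter was called, against 0.331% of all genes tested (43 higher and 3 lower). 6 of the 7 folds were positive, and 3 had an unadjusted p under 0.05 against 14.04% of all genes. The median fold of the 7 was 0.14, against 0.02 over all genes. Of the 7, Col4a2 and Col18a1 had all 3 tumor above all 4 normal libraries, as did 9.93% of all genes tested, and Col4a5 outside the filter did as well.

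S11 set much of the size of these differences. Without it the folds in Lrig1-low cells were 4.001 for Col4a1, 3.94 for Col4a2 and 2.69 for Col18a1, with adjusted p-values in edgeR of 0.794, 0.830 and 0.485. Leaving out S07, S10 or S12 brought Col18a1 past the threshold (adjusted p = 0.0340, 0.0376 and 0.0422 in edgeR), in fits that called 1.05%, 1.74% and 1.98% of genes. DESeq2 called Col18a1 (adjusted p = 0.000291) among 5.09% of genes. limma-voom with sample weights called Col4a1, Col4a2 and Col18a1 (adjusted p = 0.0334, 0.00919 and 0.00432) among 10.0% of genes. The fit without S07, S08, S09 and S10 called the same 3 genes (adjusted p = 0.0180, 0.0443 and 0.0116 in edgeR) among 3.23% of genes, with folds of 6.71, 6.29 and 4.88.

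In the Lrig1-high fraction the same comparison gave -0.02 ± 1.69 for Col4a1, -1.68 ± 1.87 for Col4a2 and 0.32 ± 0.85 for Col18a1 (SE, n = 3 and 4, adjusted p = 0.997, 0.719 and 0.887 in edgeR). No member was called and none had an unadjusted p under 0.05, beside 0% of all genes called and 11.2% with an unadjusted p under 0.05 in edgeR; DESeq2 called 114 genes there. The direction of the collagen IV pair was not stable. Without S10 the folds were 5.40 for Col4a1 and 6.53 for Col4a2 (adjusted p = 0.242 and 0.244 in edgeR), both also turned with limma-voom and with runs of library numbers as a block, and Col4a1 turned without S04 (0.32) or S12 (0.40). The difference between the fractions in their tumor response was -5.50 ± 2.56 for Col4a1, -6.97 ± 2.76 for Col4a2 and -3.68 ± 1.25 for Col18a1 (adjusted p = 0.685 for each in edgeR). By edgeR 0 of 7 members and 0% of all genes were called, and DESeq2 called 5 genes. In edgeR 2 of 7 members, Col4a2 and Col18a1, had an unadjusted p under 0.05, against 999 of all genes (7.20%). Without S10 the Col4a2 value turned to 1.24. In the fits that left out 1 library, Col4a1 ran from -6.95 to -0.0916 and Col18a1 from -4.17 to -2.37. With no member called by edgeR, these libraries do not show that the fractions respond differently.

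Over both fractions, tumor against normal, the folds were 2.73 ± 1.23 for Col4a1, 1.80 ± 1.27 for Col4a2 and 2.16 ± 0.61 for Col18a1 (SE, adjusted p = 0.269, 0.509 and 0.0822 in edgeR), with 0 of 7 members called against 2.22% of all genes. DESeq2 called Col18a1 (adjusted p = 0.00855) among 7.64% of genes, as did edgeR without S07 (adjusted p = 0.0487) among 2.21%. Without S10, edgeR called Col4a1 (5.44), Col4a2 (5.91) and Col18a1 (2.66) with adjusted p = 0.0186, 0.0218 and 0.0271, among 3.38% of genes. The same 3 genes were called without S07, S08, S09 and S10, among 4.71% of genes (adjusted p = 0.00821, 0.0247 and 0.0120 in edgeR).

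**Figure D2:**
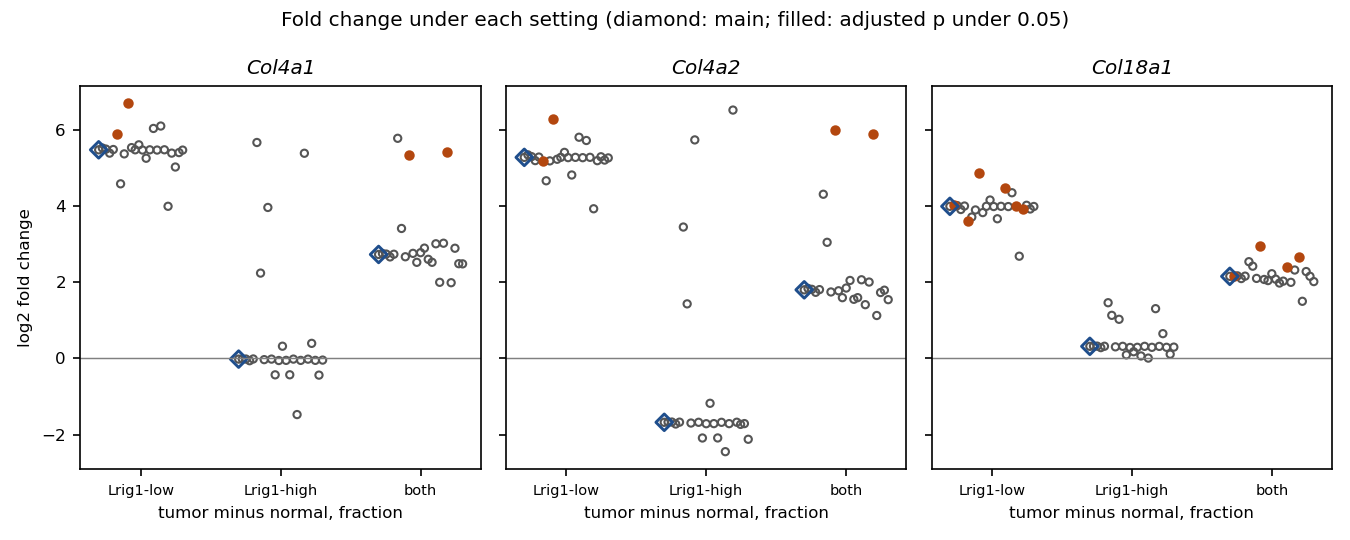
Log2 fold change of tumor over normal (vertical axis) for Col4a1, Col4a2 and Col18a1 in Lrig1-low cells, Lrig1-high cells and both, one point per way of processing or library left out, with a diamond for the fit described in the text and filled points for an adjusted p under 0.05. In Lrig1-low cells every point lies above 0, while in Lrig1-high cells Col4a1 and Col4a2 lie on both sides of 0.

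Between the sort labels in normal epithelium, Col4a1 and Col4a2 differed by 2.47 ± 1.69 and 2.56 ± 1.75 (Lrig1-high over Lrig1-low, SE, n = 4 each, adjusted p = 1 in edgeR), and without S10 by -2.95 and -5.65. In tumors Col4a1 differed by -3.04 ± 1.92, Col4a2 by -4.41 ± 2.14 and Col18a1 by -2.90 ± 0.97 (SE, n = 3 each, adjusted p = 0.714, 0.656 and 0.655 in edgeR). Col4a2 was the only one of the 7 tested members with all 3 Lrig1-high below all 3 Lrig1-low tumor libraries, as were 5.22% of all genes. No member and 0% of all genes were called between the sort labels in normal cells or in tumors by edgeR. DESeq2 called 1 gene in normal cells and 22 in tumors. In edgeR, 0 of 7 members and 499 genes (3.59%) had an unadjusted p under 0.05 in normal cells. In tumors 2 of 7 members and 1042 genes (7.51%) did. The 2 were Col18a1 and Nid1, which was at 0 in all 3 tumor Lrig1-high libraries. By the labels, S07 and S08 lie on the side opposite to their Lrig1 RNA in the tumor comparison. The direction of Col4a1, Col4a2 and Col18a1 stayed the same without them.

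**Figure D3:**
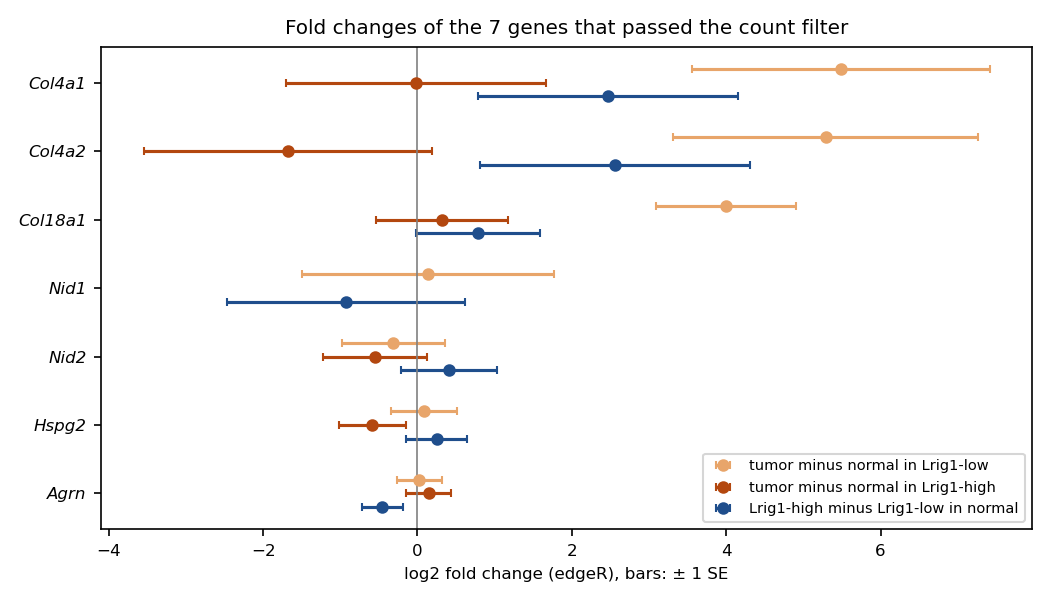
Log2 fold changes (horizontal axis, bars of ± 1 SE from edgeR) of the 7 tested members in 3 comparisons, tumor over normal in each fraction and Lrig1-high over Lrig1-low in normal epithelium, leaving out Nid1 in Lrig1-high cells. Col4a1, Col4a2 and Col18a1 in Lrig1-low cells lie at 4.0 to 5.49 with wide bars, and Agrn and Hspg2 lie near 0 with narrow ones.

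The nidogens, which bind laminin and collagen IV, differed from each other in level. Nid1 (gene 18073, chr13:13437602-13512275, plus strand) had 69 counts in all. It was at 0.733, 0, 0.594 and 0.777 CPM in S01, S05, S09 and S13, at 0.352, 0 and 1.405 CPM in S03, S07 and S11, at 0.727 CPM in S10 and 0.362 in S14, and at 0 in S02, S06 and all 3 tumor Lrig1-high libraries. At this depth its groups could not be told apart, and no fold is given or plotted for tumor over normal Lrig1-high cells, where the tumor libraries were all at 0.

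Nid2 (gene 18074, chr14:19751257-19811787, plus strand) was present in every library, at 1.19 to 17.34 CPM. It was at 7.33, 10.3, 7.66 and 7.62 CPM in S01, S05, S09 and S13, and at 8.39, 17.34, 7.51 and 10.49 CPM in S02, S06, S10 and S14. In tumors it was at 6.54, 10.9 and 2.44 CPM in S03, S07 and S11, and at 6.58, 1.19 and 14.7 CPM in S04, S08 and S12. The groups overlapped, and the tumor over normal difference was -0.31 ± 0.67 in Lrig1-low and -0.55 ± 0.68 in Lrig1-high cells (SE, adjusted p = 0.954 and 0.743 in edgeR). Nid2 was at its 2 lowest values, 2.44 and 1.19 CPM, in S11 and S08, where Col4a1 was among its 4 highest.

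The proteoglycans varied less from library to library than Col4a1, Col4a2, Col18a1 and Nid2. Hspg2, whose large core protein carries heparan sulfate chains and binds nidogen, was at 72.4, 102.5, 82.0 and 106.2 CPM in S01, S05, S09 and S13, and at 110.4, 139.4, 39.0 and 143.1 CPM in S02, S06, S10 and S14. In tumors it was at 64.4, 130.3 and 93.2 CPM in S03, S07 and S11, and at 101.4, 81.0 and 33.2 CPM in S04, S08 and S12. All groups overlapped, and S10 and S12 were the lowest of the 14.

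Agrn, which crosslinks laminin to cell surface receptors, was at 119.6, 146.2, 98.4 and 121.2 CPM in S01, S05, S09 and S13, and at 78.1, 70.9, 117.9 and 87.6 CPM in S02, S06, S10 and S14. In tumors it was at 146.9, 63.1 and 159.3 CPM in S03, S07 and S11, and at 77.1, 113.2 and 103.7 CPM in S04, S08 and S12. The tumor over normal difference was 0.02 ± 0.29 for Agrn and 0.08 ± 0.43 for Hspg2 in Lrig1-low cells (SE, adjusted p = 0.996 and 0.989 in edgeR), with 95% intervals of -0.55 to 0.59 and -0.75 to 0.92. In Lrig1-high cells it was 0.15 ± 0.29 for Agrn and -0.59 ± 0.43 for Hspg2 (adjusted p = 0.844 and 0.598 in edgeR), with intervals of -0.42 to 0.71 and -1.43 to 0.26.

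Between the sort labels of normal epithelium, Agrn was at 121.4 ± 19.6 CPM in Lrig1-low and 88.6 ± 20.7 CPM in Lrig1-high cells (SD, n = 4 each), a difference of -0.45 ± 0.27 (SE, adjusted p = 1 in edgeR). The groups overlapped, since S10 lay at the Lrig1-low level, at 117.9 CPM, while the other 3 Lrig1-high libraries were at 70.9 to 87.6 CPM. limma-voom with sample weights called the difference (-0.64, adjusted p = 0.00911), but called 30.0% of all genes in that comparison. edgeR without S07, S08, S09 and S10 called it too (-0.69, adjusted p = 0.0443), among 5.69% of genes.

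The 2 proteoglycans moved apart between libraries. Per length, Agrn was at 2.19 to 3.18 times the level of Hspg2 in the 4 normal Lrig1-low libraries, and at 0.977 to 1.36 times in S02, S06 and S14 of the normal Lrig1-high label. In S10 of that label the ratio was 5.81. The tumor libraries had ratios of 4.38 (S03), 0.930 (S07) and 3.29 (S11) in Lrig1-low and 1.46 (S04), 2.69 (S08) and 6.01 (S12) in Lrig1-high. The 5 libraries with a ratio under 1.5 were the 5 with more than 120 CPM of Lrig1 (126.2 to 148.1 CPM), and the other 9 had 36.3 to 85.5 CPM. This relation was seen in the data and is given as a description, with no test.

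**Figure D4:**
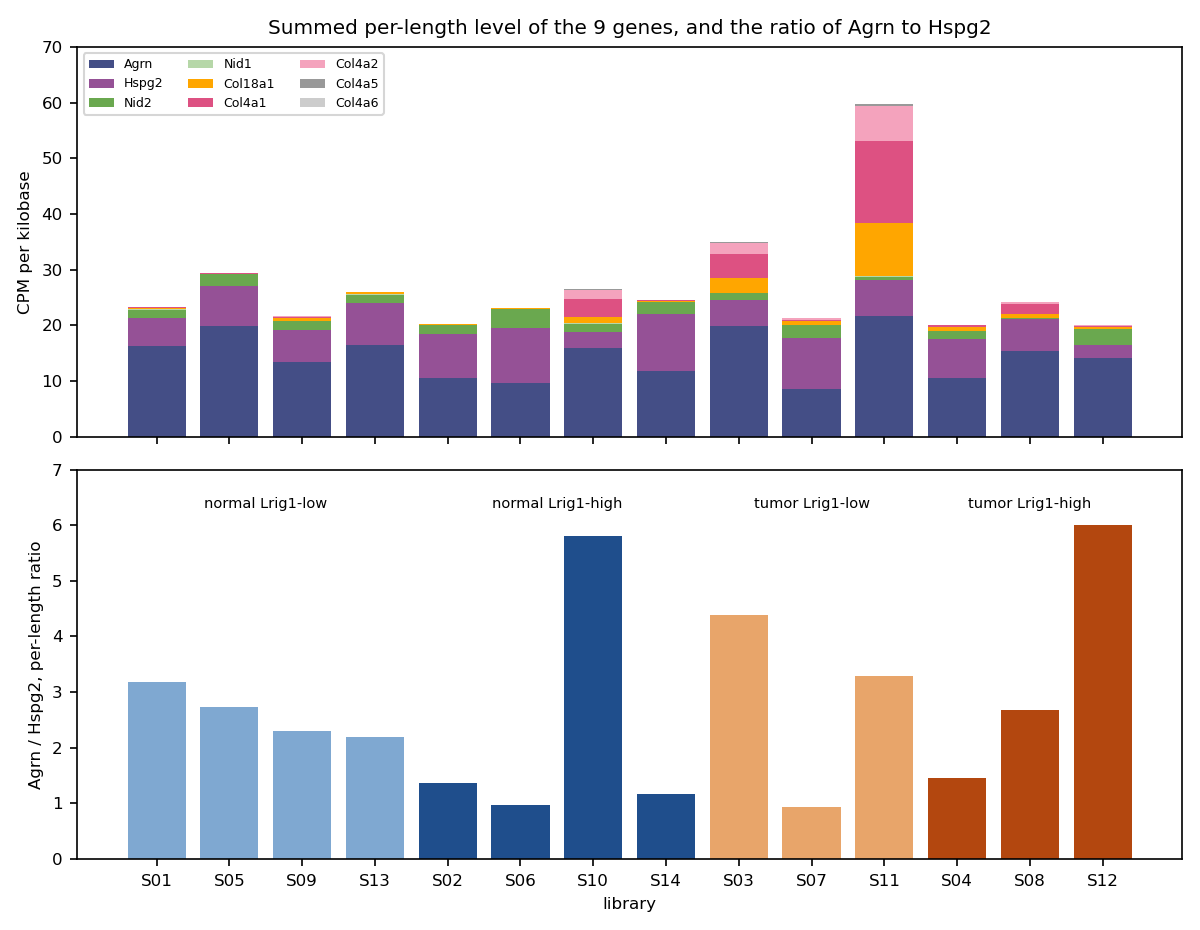
Top, level of the 9 genes per kilobase of exon (stacked bars, CPM per kilobase) in each library; bottom, ratio of Agrn to Hspg2 per length, coloured by label. Agrn and Hspg2 fill most of every bar except S11, where Col4a1, Col4a2 and Col18a1 were added on top of the highest Agrn level of the 14, and the ratio runs from 0.930 in S07 to 6.01 in S12.

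Since EpCam+ cells were sorted without CD31 and CD45, markers of other cells were read beside the collagens; in bulk RNA a few cells with much RNA and many cells with little cannot be told apart. Of 13 endothelial markers, the summed level was 4.04 to 10.2 CPM in normal Lrig1-low, 7.57 to 47.1 in normal Lrig1-high, 24.1 to 222 in tumor Lrig1-low and 10.9 to 59.5 CPM in tumor Lrig1-high libraries. Cdh5 (VE-cadherin) gave most of it in S11 (154.7 CPM), S03 (31.9), S10 (30.2) and S12 (26.6), and less than the other markers together in S08 (24.3) and S07 (8.79); it was at 3.23 CPM or less in the other 8. Flt1, Tek and Vwf were highest in S11 as well, at 23.7, 14.6 and 21.4 CPM. Pecam1, which encodes the CD31 used to remove cells in the sort, was at 1.11 CPM in S11 and highest in S09, at 1.85 CPM. Esam was highest in S06, at 8.14 CPM, and Egfl7 in S08, at 2.83 CPM. Kdr was at 0.222 and Tie1 at 0.0606 CPM at most, and Emcn and Cldn5 were at 0 in all 14 libraries.

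The 13 fibroblast markers summed to 0 to 1.91 CPM in normal Lrig1-low, 0 to 10.8 in normal Lrig1-high, 0.345 to 31.1 in tumor Lrig1-low and 0 to 1.51 CPM in tumor Lrig1-high libraries. Pdgfra, a receptor of fibroblasts, gave most of it, at 26.0 CPM in S11, and no more than 2 of the 13 reached 1 CPM in any library. The 10 smooth muscle and pericyte markers summed to 14.5 CPM in S11 and 42.6 CPM in S12, against 2.45 to 8.73 CPM in the others. In S12, Myh11 was at 23.4, Acta2 at 12.7 and Notch3 at 6.37 CPM, the highest of the 14 libraries for each, and the other 7 markers were at 0. Pdgfrb went the other way, at 0.444 CPM in S11 and highest in S01, at 3.26 CPM. Des, Cnn1 and Actg2 were at 0 throughout. Leukocyte markers summed to 6.67 to 57.2 CPM, the highest in S08, where Ptprc (CD45) was at 46.0 CPM. Only 2 of the 14 leukocyte markers reached 1 CPM in S08, and 11 were at 0 there, Cd3e and Csf1r among them. Glial and neuronal markers summed to 7.84 CPM at most, in S11. The part of other cells in the collagen levels was not tested.

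**Figure D5:**
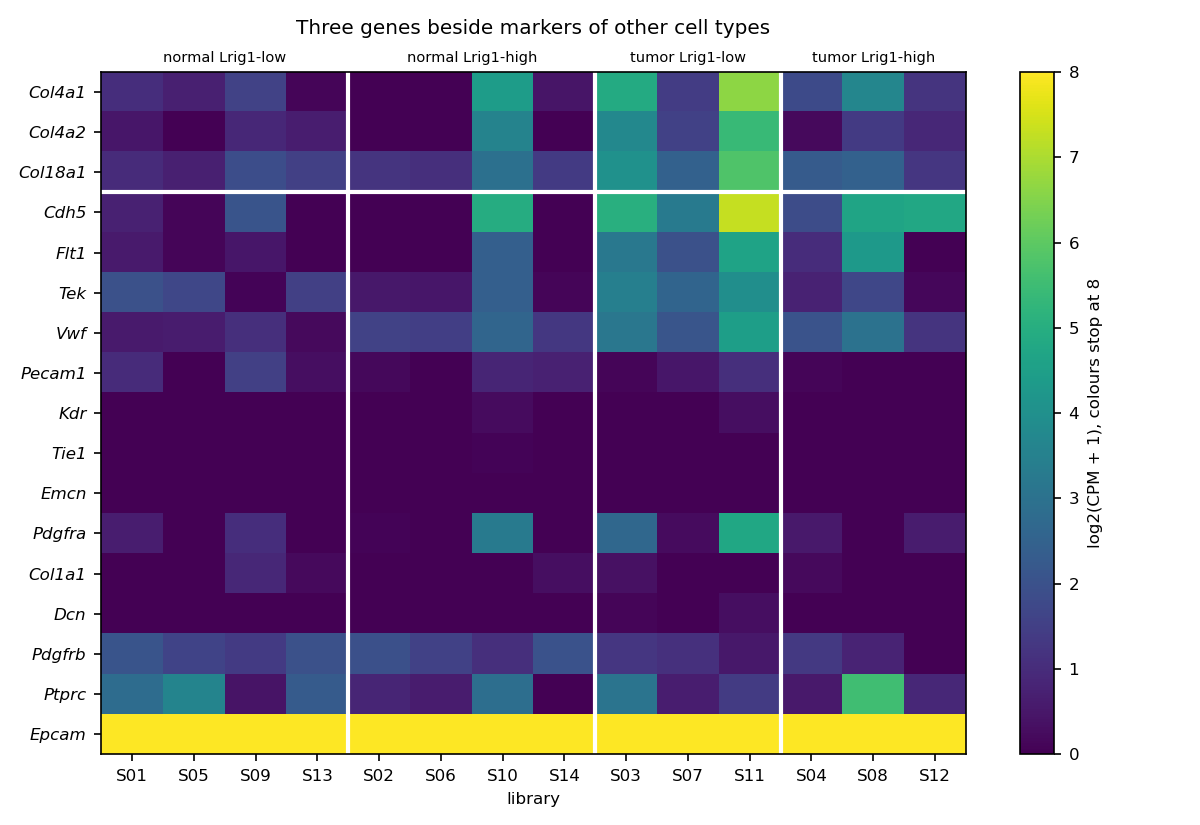
Level (colour, log2(CPM + 1), colours stop at 8) of Col4a1, Col4a2 and Col18a1 above the white line and of markers of endothelium, fibroblasts, pericytes, leukocytes and epithelium below it, in the 14 libraries by label. Cdh5, Flt1, Vwf and Pdgfra are highest in S11, as are the collagens, Flt1 and Vwf are higher in S08 than in S10, and Cdh5 is also at 24.3 and 26.6 CPM in S08 and S12, while Kdr, Tie1, Emcn, Col1a1 and Dcn stay near 0.

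Other genes of the basement membrane were read from lists. Of 25 tested basement membrane genes outside the 9, such as laminin chains, 19 had a positive fold in tumor over normal Lrig1-low cells, with a median of 1.17 against 0.02 over all genes, and 1 rose past the threshold. That was Lamb2, which encodes the laminin beta 2 chain, at 3.41 ± 0.63 (adjusted p = 0.0363 in edgeR), where 0.331% of all genes were called. The call was lost in 9 of 14 fits that left out 1 library (S01, S02, S04, S05, S06, S08, S11, S13 or S14), with folds of 2.76 to 4.13. Over both fractions 2 of 25 rose, Lamb2 at 1.80 ± 0.42 and Lama5, the laminin alpha 5 chain of mature epithelial basement membranes, at 2.87 ± 0.62 (adjusted p = 0.0458 and 0.0338 in edgeR), and none fell, against 2.22% of all genes called. Lamb2 was lost there in 10 of 14 such fits (without S01, S02, S03, S05, S06, S08, S10, S11, S13 or S14) and Lama5 in 8 (without S01, S02, S05, S06, S11, S12, S13 or S14). In Lrig1-high cells 0 of 25 were called, with a median of 0.42; Fbln1, which encodes the matrix protein fibulin 1, was at 0.62 ± 0.25 (adjusted p = 0.384 in edgeR).

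Of 24 tested receptors and surface partners, 2 rose in Lrig1-low tumor cells and none fell, against 0.331% of all genes called. Cd44, a receptor of hyaluronan that can carry heparan sulfate, rose by 3.07 ± 0.44 and Ptprs, a receptor phosphatase that binds heparan sulfate, by 2.29 ± 0.42 (adjusted p = 0.0106 and 0.0363 in edgeR). Leaving out S01, S05, S11 or S13 ended both calls, and leaving out S02, S04, S06 or S14 that of Ptprs, with folds of 2.87 to 3.55 for Cd44 and 1.77 to 2.69 for Ptprs. Over both fractions, where 2.22% of all genes were called, 3 rose: Cd44 by 2.07 ± 0.30, Ptprs by 1.60 ± 0.29 and Itgav, the integrin alpha V chain, by 1.25 ± 0.29 (adjusted p = 0.00618, 0.0231 and 0.0446 in edgeR). Cd44 was called in all 14 fits without 1 library, Ptprs was lost without S01, S02, S05, S11, S13 or S14, and Itgav in 10 of the 14 (without S01, S02, S03, S05, S06, S09, S11, S12, S13 or S14). In Lrig1-high cells 0 of 24 were called, and Itga6, a chain of laminin-binding integrins, was at -0.09 ± 0.28 (adjusted p = 0.907 in edgeR).

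Genes of the machinery that makes these proteins were also read from lists, and none was called by edgeR. Of all genes tested, 0.331% were called in Lrig1-low cells, 0% in Lrig1-high cells and 2.22% over both fractions. At such shares, lists of this size would hold few calls or none. Of 17 tested genes of collagen processing, secretion and crosslinking, 12 had a positive fold in Lrig1-low cells, with a median of 1.20, and 0 were called in any tumor over normal comparison by edgeR. P4hb, a subunit of prolyl 4-hydroxylase and a disulfide isomerase, was at -0.56 ± 0.36 and Ppib, a folding enzyme of the endoplasmic reticulum, at 0.39 ± 0.15 there (adjusted p = 0.586 and 0.259). All 22 genes of heparan sulfate synthesis and editing were tested and 0 were called, with medians of 0.21 in Lrig1-low and 0.19 in Lrig1-high cells. Hs6st1, a heparan sulfate 6-O-sulfotransferase, was at 0.39 ± 0.21 in Lrig1-low cells (adjusted p = 0.450 in edgeR).

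Of 15 tested proteases and inhibitors, 13 had a positive fold in Lrig1-low tumor cells, with a median of 2.38, and 1 rose: Mmp14, a membrane-bound matrix metalloproteinase, by 1.83 ± 0.35 (adjusted p = 0.0426 in edgeR), against 0.331% of all genes called. Its call was lost without S01, S02, S04, S05, S06, S08, S11, S13 or S14, with folds of 1.15 to 2.12. Over both fractions 2 rose, Mmp14 by 1.27 ± 0.24 and Timp2, a metalloproteinase inhibitor that also takes part in MMP activation, by 3.55 ± 0.67 (adjusted p = 0.0259 and 0.0256 in edgeR), against 2.22% of all genes called, and both were lost without S01, S02, S05, S06, S11, S13 or S14. In Lrig1-high cells 0 of 15 were called, with a median of 0.70. The medians of the 5 lists over all genes tested were set against 0.02 in Lrig1-low, -0.04 in Lrig1-high and -0.02 over both, and they were the same with genes absent from a group set at their bound against 3 counts over that group.

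For each tested member, the genes most like it over the 14 libraries were found among 10213 genes with a mean of at least 5 CPM, by the root mean square difference of centred log2(CPM + 1) values. For Col4a1 these were Cyp1b1, Ctsl and Tns1, at differences of 0.664, 0.702 and 0.742, against a median of 2.08 over all candidates. For Col4a2 they were Fer1l4, Ctsl and Mamld1 (0.520 to 0.573), and for Col18a1 Pdlim7, Npnt and Ccdc136 (0.285 to 0.431). S11 was the highest library of each of these, and Ctsl, a lysosomal protease, and Npnt, the basement membrane protein nephronectin, are themselves in the lists above. Nearest to Agrn were Secisbp2l, Spag9 and Vps37a (0.146 to 0.164), to Hspg2 Hsp90aa1, Nfya and Baz1b (0.233 to 0.269), and to Nid2 Tmem69, Smco4 and Rnf26 (0.376 to 0.414). Nid1, close to flat at its low counts, gave Tmod3, Ube2o and Ppp1r15a, at 0.228 to 0.233.

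The spread over libraries set the members apart from each other. The SD of log2(CPM + 1) over the 14 libraries was 2.08 for Col4a1, 1.69 for Col4a2 and 1.39 for Col18a1, and 99.5%, 98.5% and 96.8% of tested genes had a smaller one. It was 0.80 for Nid2, 0.62 for Hspg2, 0.43 for Nid1 and 0.41 for Agrn, with 71.8%, 56.6%, 33.6% and 30.9% of genes below. From lowest to highest library, Agrn varied 2.53-fold, Hspg2 4.32-fold, Nid2 14.6-fold and Col18a1 87.5-fold.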

How the data were processed

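The deposited table holds raw counts of reads for each gene in 15 libraries. Per the file headers, featureCounts 1.5.3 counted exons of RefSeq genes on mm10 in the reverse strand setting; no option for fragments is named, so both reads of a pair counted, and none for multi-mapping or overlapping reads. The submitters' processing notes also name Trimmomatic, HISAT2 and Subread. Libraries came from a strand-keeping low-input kit with ribosomal RNA removal, per the labels' protocols. Groups came from the titles.

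With S15 left out (under 1000 counts), the 14 libraries were fitted in edgeR (version 4.0.16, R 4.3.3): TMM factors, filterByExpr (13883 genes kept), 1 coefficient per group, quasi-likelihood F tests, Benjamini-Hochberg adjustment over all genes tested. CPM use the TMM factors, and per-length levels divide them by exon length in kilobases. The SE is the absolute log2 fold change over the square root of F. The fit was tested on simulated data. Alternatives used DESeq2 1.42.0, limma 3.58.1, other filters and other library sets.

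The members and lists were chosen with earlier results of these data known. Named genes were the 9 members and, per list and tumor comparison, up to 3 called genes per direction by adjusted p, otherwise the 2 with the highest per-length level, of which the text gives some. Marker and sort genes were named to show what moved with a member. Promoter windows came from RefSeq.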

Additional observations from a re-analysis of the deposited data

Results flagged for a closer look

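Within groups of 4 libraries, the gap of the highest or lowest library to its neighbour was set against the range of the group for the members (Dixon's test at its 95% critical value). Of 15 such sets of values, 4 were past it. The test's rate of 1 in 20 holds for independent sets of normally distributed values. These were CPM without a log scale, and sets of the same label share their libraries. The count of flags therefore cannot be set against that rate, and the flags are given as a description only.

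In 3 of the 4 flagged sets the library that stood apart was S10, labelled normal Lrig1-high. Col4a1 was at 20.7 CPM there, against 0 to 0.362 CPM in the other 3 libraries of the label, Col4a2 was at 10.96 CPM against 0 in each, and Col18a1 was at 6.66 CPM against 1.12 to 1.59 CPM. The fourth was Nid2 in normal Lrig1-low cells, at 10.3 CPM in S05 against 7.33 to 7.66 CPM in the others.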

How the results depend on the processing

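The count of members called was 0 of 7 in every comparison by edgeR with all 14 libraries. For tumor over normal in Lrig1-low cells it was 1 with DESeq2, 3 with limma-voom and sample weights and 3 without S07, S08, S09 and S10, and 0 to 1 when each library was left out in turn. Over both fractions it was 1 with DESeq2, 3 without those 4 libraries and 0 to 3 over the leave-one-out fits, the 3 without S10. Between the sort labels in normal cells it was 1, Agrn, both with limma-voom and without the 4 libraries. Of 543 recomputed fold changes of members, 491 kept their direction and side of the threshold, 20 moved past it and 32 changed sign. None could fall back, since no member was called by edgeR with all 14 libraries. In Lrig1-high cells the sign of Col4a1 turned with limma-voom (5.68), library number runs as a block (2.24) and without the 4 libraries (3.97), and leave-one-out values ran from -1.47 to 5.40; for Col4a2 these were 3.46, 1.44 and 5.75, and -2.45 to 6.53. Between the sort labels in normal cells Col4a1 was at -2.32 with limma-voom, -2.25 without the 4 libraries and -2.95 to 3.18 leaving out 1, and Col4a2 at -2.95, -5.11 and -5.65 to 3.08. For the difference between fractions Col4a2 ran from -7.73 to 1.24. Near 0 in Lrig1-low cells, Hspg2 turned to -0.30 with limma-voom, -0.0024 with S15 included, -0.27 without the 4 libraries and -0.21 to 0.27 leaving out 1; Agrn turned to -0.031 with no filter, -0.029 with the block, -0.079 with S15 and -0.21 to 0.33 leaving out 1, and Nid2 ran from -0.87 to 0.081. The cause of these turns was not tested.

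The 46 genes called in Lrig1-low cells by edgeR were 706 with DESeq2, 1389 with limma-voom, 452 without the 4 libraries, 70 with DESeq2 size factors, 86 with a minimum of 1 CPM in 4 libraries, 95 with the block, 92 with S15 included and 0 to 285 over the leave-one-out fits. The 308 over both fractions were 1060 with DESeq2, 548 with limma-voom, 658 without the 4 libraries, 165 with the block and 34 to 1060 leaving out 1. Against 0 in edgeR, Lrig1-high cells had 114 with DESeq2, 12 without the 4 libraries, 1 with the block and up to 807 leaving out 1. Between the sort labels these were 1 with DESeq2, 4169 with limma-voom and 796 without the 4 libraries in normal cells, and in tumors 22 with DESeq2, 48 without the 4 libraries and up to 365 leaving out 1. The difference between fractions had 5 with DESeq2 and up to 157 leaving out 1. Of the 7 other genes called in the lists, Cd44 over both fractions was called in every fit run, and in Lrig1-low cells Lamb2, Mmp14 and Ptprs were not called with only the groups compared. There Lamb2 was also lost with the block and Mmp14 with S15 included. Over both fractions Lamb2 was lost with no filter and with the block, and Itgav with the block. Scaling without mitochondrially encoded genes moved 6 of 36 group means by more than their SD. Leaving out S12 was part of the leave-one-out fits. No paired analysis was possible because the labels give the groups no shared replicate numbers; the block above joins runs of 4 consecutive library numbers, which the labels tie to no animal or day. Depth limits Col4a5, Col4a6 and Nid1, at 45, 0 and 69 counts in all.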
